A study of Rattus norvegicus with 40 samples.

Results

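Zinc transporters of the rat hippocampus were followed through developmental lead exposure as 6 genes, Slc30a1, Slc30a3, Slc30a10, Slc39a8, Slc39a12 and Slc39a14. Each was taken as the probe set that carried its symbol and no other in the platform's annotation, and each had exactly 1 such probe set. They made up 6 of the 14506 genes that a probe set with a single symbol represented, and 6 of the 24 measured genes of the 2 zinc transporter families. Hippocampal RNA from rats killed at postnatal day 55 was hybridised to 40 whole-transcript arrays, 1 RNA sample to an array, in 10 groups of 4. Males and females had lead acetate in the chow at 250 or 750 ppm, either perinatally or postnatally, and both sexes had controls on the same chow without lead. Perinatally exposed animals got lead through dams that ate it from 10 days before breeding until weaning, and had control chow from then on. Postnatal exposure through lead chow ran from birth to postnatal day 45, and control chow followed until the animals were killed. The strain was not given in the sources used here, and the labels do not give the litters. The spread behind each p-value is that among arrays within a group, pooled over all 10 groups. Whether the 4 arrays of a group are independent is not stated.

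The SLC30 proteins (ZnT) move zinc out of the cytosol, into the extracellular space or into organelles and vesicles, and the SLC39 proteins (ZIP) move it into the cytosol. In the hippocampus, glutamatergic terminals, above all the mossy fibres of dentate granule cells, store zinc in synaptic vesicles and release it with the transmitter. Several members also carry other divalent metals. SLC30A10 is known chiefly as an exporter of manganese, and SLC39A8 and SLC39A14 take up manganese and iron as well as zinc.

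Zinc sets the transcription of some of these genes through metal response elements in their promoters, which the zinc-sensing factor MTF-1 binds. The promoters of Slc30a1 and of the metallothionein genes Mt1 and Mt2A are printed because their transcripts are set side by side below. They are the RefSeq windows of build GRCr8, from 250 bases before to 50 bases after the gene's start, written 5′ to 3′ along the gene. Capitals mark the core of the element, TGCACNC or TGCGCNC, on either strand.
Slc30a1 (chr13:106021769-106022068, plus strand): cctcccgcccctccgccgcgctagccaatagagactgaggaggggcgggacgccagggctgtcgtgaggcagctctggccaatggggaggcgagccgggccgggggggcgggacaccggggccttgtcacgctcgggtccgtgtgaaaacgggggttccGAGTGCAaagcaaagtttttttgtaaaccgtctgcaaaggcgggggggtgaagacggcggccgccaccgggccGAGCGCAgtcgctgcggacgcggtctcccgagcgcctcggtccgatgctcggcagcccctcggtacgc
Mt1 (chr19:10832926-10833225, minus strand): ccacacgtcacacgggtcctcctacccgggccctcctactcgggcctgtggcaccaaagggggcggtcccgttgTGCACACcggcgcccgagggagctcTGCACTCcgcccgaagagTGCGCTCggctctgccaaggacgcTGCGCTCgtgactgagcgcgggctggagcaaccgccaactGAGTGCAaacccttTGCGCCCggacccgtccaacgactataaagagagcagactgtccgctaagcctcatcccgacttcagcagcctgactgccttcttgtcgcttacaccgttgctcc
Mt2A (chr19:10838659-10838958, minus strand): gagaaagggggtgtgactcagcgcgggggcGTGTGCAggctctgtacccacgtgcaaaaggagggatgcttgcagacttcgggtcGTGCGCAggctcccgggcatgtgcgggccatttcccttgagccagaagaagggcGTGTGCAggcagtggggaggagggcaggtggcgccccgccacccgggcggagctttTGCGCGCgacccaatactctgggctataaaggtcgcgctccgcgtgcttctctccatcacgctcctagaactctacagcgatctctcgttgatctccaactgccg
The Slc30a1 window held 2 matches, both on the strand opposite to the gene, at positions -91 and -18 from the start. The Mt1 window held 6 matches, the Mt2A window 4 and that of the brain metallothionein Mt3 3. Among all 33469 windows, 24.2% held at least 1 match, 6.36% at least 2 and 0.439% at least 4. The letters were in none of the 3 windows of Slc30a3, Slc39a8 and Slc39a12. Slc30a10 and Slc39a14 had no entry.

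The arrays gave log2 signals from 2.07 to 13.93, with array medians between 6.96 and 7.06 and a median SD within a group of 0.110. Prox1 (9.61 to 10.02) and C1ql2 (9.54 to 10.13), markers of dentate granule cells, were bright on all 40 arrays. By the X-linked Eif2s3 (11.62 to 11.77 in exposed females, 11.15 to 11.42 in exposed males), 3 controls went against their sex label. The array labelled male control 4 read 11.69, and those labelled female control 1 and 3 read 11.28 and 11.30. The signal scale was compressed on 3 arrays (males exposed perinatally, 250 ppm replicates 1 and 3 and 750 ppm replicate 1). Controls and the females exposed perinatally to 750 ppm came from the lowest run of title numbers and the other 7 exposed groups from other runs, so in those 7 groups lead cannot be told apart from the run. Nor can whole tissue separate fewer cells of a type from less RNA per cell: the 2 cannot be told apart here.

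Of the 6 transporters, Slc39a12 alone was called lower with lead, and only over all exposed groups together. In each of the 8 comparisons of an exposed group with controls of its sex label, 0 of 6 members passed the threshold, an adjusted p under 0.05 over all 29214 probe sets in limma. The share of all probe sets called was small in every one of them. In males it was 0.0890% for 250 ppm perinatal, 0.0582% for 750 ppm perinatal, 0.0342% for 250 ppm postnatal and 0.0445% for 750 ppm postnatal. In females it was 0.0171%, 0.157%, 0.0171% and 0.0137% in the same order. Between the mean of the 8 exposed groups and the mean of both control groups, 1 of 6 members was called, against 0.380% of probe sets. The median difference of the 6 members there was -0.03 log2, against 0.0022 over all probe sets.

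**Figure D1:**
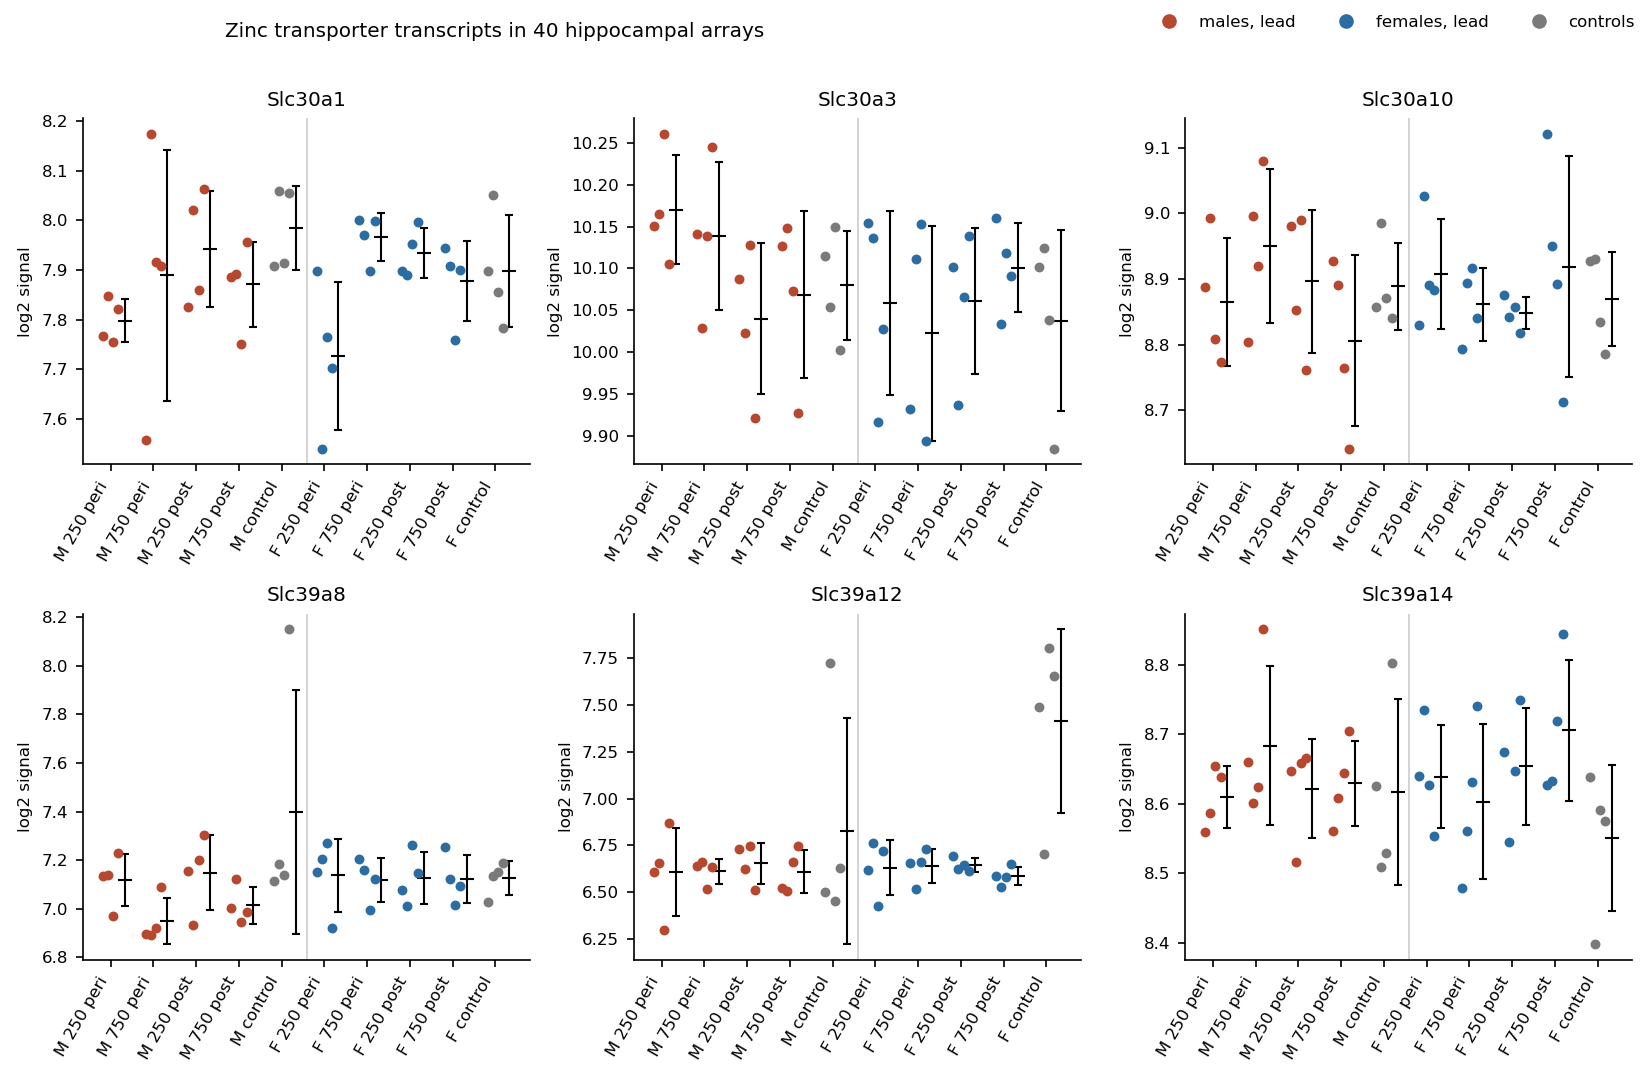
Log2 signal (vertical axis) of each zinc transporter on all 40 arrays, by group (M male, F female, 250 and 750 ppm, peri perinatal, post postnatal). Points are arrays, bars are the mean and SD of 4 arrays, and the grey line divides males from females; Slc39a8 stood at 8.15 on 1 male control, and Slc39a12 was above 7.4 on 4 controls and at most 6.87 on all 32 exposed arrays.

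The exporter Slc30a1 (probe set 10766774), ZnT1 of the plasma membrane, which lowers cytosolic zinc and is induced by zinc, differed little between exposed animals and controls. The lowest group means were those of animals exposed perinatally to 250 ppm. Males of that group read 7.77, 7.85, 7.75 and 7.82, against 7.91, 8.06, 7.91 and 8.06 in male controls. All 4 exposed values lay below all 4 controls, an arrangement found in 1.02% of probe sets in this comparison. The difference was -0.19 (SE 0.08, adjusted p = 0.647). Females exposed perinatally to 250 ppm read 7.90, 7.54, 7.77 and 7.70, against 7.90, 8.05, 7.86 and 7.78 in female controls, and the groups overlapped. That difference was -0.17 (SE 0.08, adjusted p = 0.888). In the other 6 exposures Slc30a1 differed from controls by at least -0.11 and at most 0.07.

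The largest difference in Slc30a1 was that of dose in females exposed perinatally. In the other strata, 750 minus 250 ppm was 0.09 (males, perinatal), -0.07 (males, postnatal) and -0.06 (females, postnatal). Averaged over sexes and windows it was 0.05 (adjusted p = 0.875). Females exposed perinatally to 750 ppm read 7.9997, 7.969, 7.898 and 7.9989, against 7.898, 7.540, 7.765 and 7.702 in those exposed perinatally to 250 ppm, and the groups met at 7.898. The difference was 0.24 (SE 0.08, 95% interval 0.07 to 0.41, adjusted p = 0.402), and 0 of 6 members were called there against 0.0856% of probe sets. Mt1 and Mt2A, which bind zinc and are induced by it, were called in this comparison. Mt1 read 10.45, 10.60, 10.68 and 10.62 at 750 ppm, against 10.14, 10.26, 9.97 and 10.32 at 250 ppm, without overlap. The difference in Mt1 was 0.41 (SE 0.09, adjusted p = 0.0428). Mt2A read 12.83, 12.85, 13.02 and 12.94 at 750 ppm, against 12.49, 12.57, 12.61 and 12.52 at 250 ppm, again without overlap. The difference in Mt2A was 0.36 (SE 0.07, adjusted p = 0.0278). In the other strata, in the order given above, the dose difference was 0.18, -0.06 and 0.16 for Mt1. For Mt2A it was 0.03, -0.05 and 0.02. None of these was called, nor was the average of Mt1 (0.17, adjusted p = 0.126) or of Mt2A (0.09, adjusted p = 0.530).

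For dose in females exposed perinatally, the second probe set of each metallothionein gave 0.48 for Mt1 and 0.45 for Mt2A (adjusted p = 0.0275 both). Which of the 2 probe sets of each gene match copies of it elsewhere in the genome was not given. Whether the 2 are independent measures is therefore unknown. The calls were close to the threshold: leaving out 1 array at a time ended that of Mt1 in 19 of 40 fits (highest adjusted p = 0.278) and that of Mt2A in 7 of 40 (highest adjusted p = 0.228). The groups also came from different runs of title numbers, which cannot be told apart from dose here. All 11 measured choroid plexus and ependyma markers were higher at 750 ppm (median 0.64, 0 called; list means 6.79 to 10.21 at 750 ppm and 6.77 to 9.41 at 250 ppm), as were 8 of 9 liver markers (median 0.37, 2 called), 5 of 5 red blood cell markers (median 0.57, 0 called) 9 of 9 meningeal fibroblast markers (median 0.28, 0 called) and 9 of 10 microglia markers (median 0.07, 0 called). Astrocyte markers were higher in 9 of 11 (median 0.01, 0 called) and dentate granule and mossy fibre markers in 5 of 6 (median 0.05, 0 called). Endothelial and mural cell markers were higher in 6 of 11 (median 0.09, 0 called). Myelin markers were lower in 9 of 9 (median -0.13, 0 called) and hippocampal neuron markers in 9 of 10 (median -0.04, 0 called). Their part in the Slc30a1 and metallothionein values was not tested. Mt3 differed by 0.05 (adjusted p = 0.874) and Mtf1, the gene of the zinc-sensing factor, by -0.08 (adjusted p = 0.755).

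**Figure D2:**
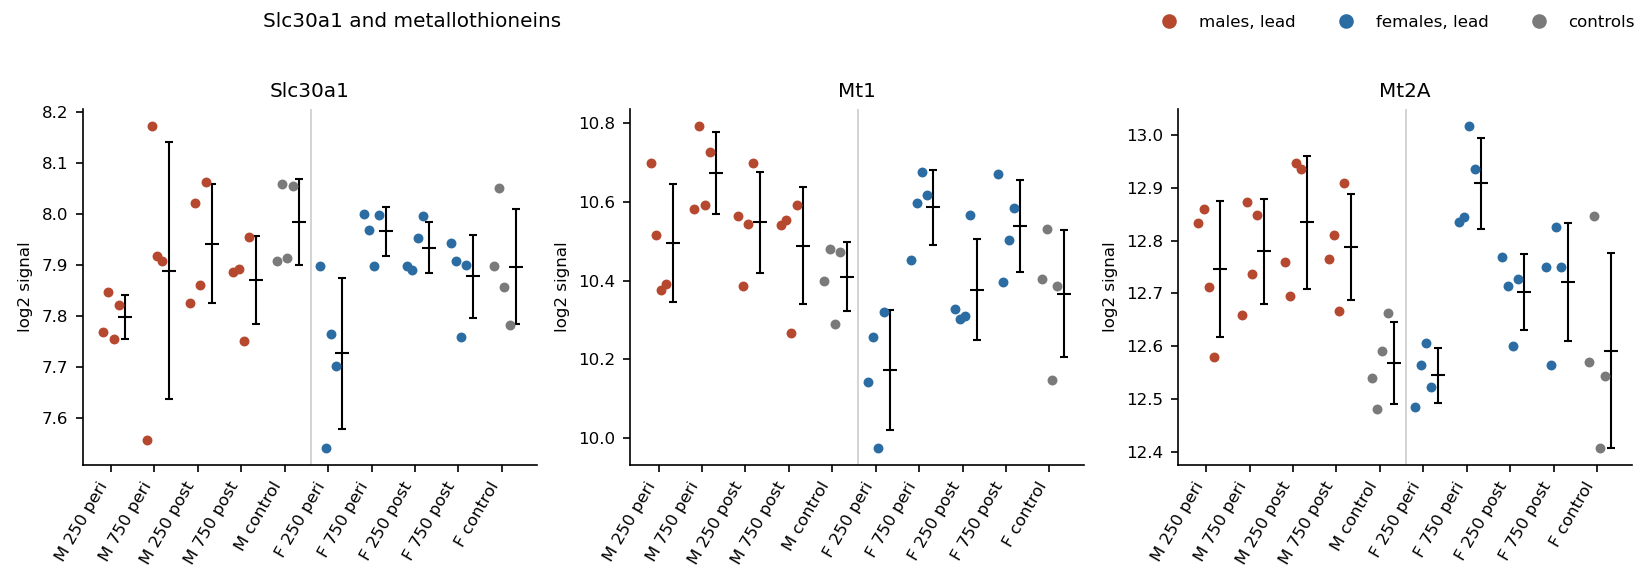
Log2 signal (vertical axis) of Slc30a1 and of the zinc-binding metallothioneins Mt1 and Mt2A on all 40 arrays, by group. Points are arrays and bars the mean and SD of 4 arrays. In females exposed perinatally, all 750 ppm arrays lie above all 250 ppm arrays for Mt1 and Mt2A, and the Slc30a1 groups meet at 7.90.

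Across the 40 arrays Slc30a1 followed Mt1 with r = 0.37 and Mt2A with r = 0.30. Its most similar genes were the arginine methyltransferase Prmt1 (r = 0.67), the aspartate aminotransferase Got1 (r = 0.65) and the mitochondrial ribosomal protein gene Mrpl16 (r = 0.64). With Prmt1, r was 0.49 without the 2 arrays farthest from its median. Among the 15 marker and metal gene lists, r with the list mean lay between -0.19 and 0.50, the highest for microglia (0.50, rho 0.47). These correlations describe arrays that share their scaling.

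Slc30a3 (probe set 10883162), ZnT3, which fills glutamatergic synaptic vesicles with zinc, was among the steadiest of the transporters. Its group means spanned 0.15 log2, from 10.02 ± 0.13 in females exposed perinatally to 750 ppm to 10.17 ± 0.07 in males exposed perinatally to 250 ppm (SD, n = 4). The 32 exposed arrays lay between 9.89 and 10.26 (median 10.11), and the 8 controls between 9.88 and 10.15 (median 10.08). The mean of exposed groups differed from controls by 0.02, with a 95% interval of -0.05 to 0.10, and the smallest adjusted p over the 8 exposures was 0.862. Over the single exposures the 95% intervals, each for 1 comparison taken alone, reached from -0.17 to 0.22 at most. The largest difference was that of window in males at 250 ppm, -0.13 for postnatal minus perinatal (adjusted p = 0.778).

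The genes most like Slc30a3 over the arrays were Ap1m1, a clathrin adaptor subunit (r = 0.79, rho 0.72), Porcn, which acylates Wnt proteins (r = 0.78), and the receptor gene Gpr12 (r = 0.77). Without the 2 farthest arrays each, r stayed between 0.71 and 0.75. The mean of the other 11 SLC39 importers followed Slc30a3 with r = 0.59, and the thalamus and habenula list ran against it with r = -0.51, on 3 measured markers of 7. Hippocampal neuron markers gave r = 0.28 and the dentate granule and mossy fibre list r = 0.12.

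Slc30a10 (probe set 10766556), the manganese exporter, was not called in any comparison. Its 32 exposed arrays lay between 8.64 and 9.12 (median 8.89) and its 8 controls between 8.79 and 8.99 (median 8.86). Group means spanned 0.14 log2. The mean of exposed groups differed from controls by 0.0024, with a 95% interval of -0.08 to 0.08, and the smallest adjusted p over the 8 exposures was 0.720. Its smallest adjusted p anywhere was 0.256, for males at 750 ppm, postnatal minus perinatal (-0.14). Males exposed postnatally there read 8.93, 8.89, 8.76 and 8.64, against 8.80, 8.996, 8.92 and 9.08 with perinatal exposure, and the groups overlapped. The most similar genes were the ectonucleotidase Entpd2 (r = 0.63), the cation exchanger Slc24a3 (r = 0.61) and the chaperone Hsp90ab1 (r = 0.60). With the 2 farthest arrays of each left out, these r values fell to 0.50, 0.53 and 0.50. Slc30a10 and Slc30a3 were the most alike of the 15 pairs of members (r = 0.43, rho 0.38). Their r was 0.35 with the 2 arrays farthest from the Slc30a10 median left out. The least alike pair, Slc30a3 and Slc39a12, had r = -0.26.

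Among the importers, Slc39a8 (probe set 10819269), ZIP8, which carries zinc, manganese, iron and cadmium, was set apart by a single array. Male control 4 read 8.15, and the other 39 arrays lay between 6.89 and 7.30. Male values were 7.14, 7.14, 6.97 and 7.23 at 250 ppm perinatal, 6.90, 6.89, 6.92 and 7.09 at 750 ppm perinatal, 7.15, 6.93, 7.199 and 7.30 at 250 ppm postnatal and 7.005, 7.12, 6.95 and 6.99 at 750 ppm postnatal, against 7.11, 7.19, 7.14 and 8.15 in male controls. At 750 ppm perinatal all 4 values lay below all 4 controls, as in 1.31% of probe sets. The exposed males differed from controls by -0.28, -0.45, -0.25 and -0.38 in that order (SE 0.13), with no adjusted p under 0.264. Without male control 4 the difference was -0.20 at 750 ppm perinatal (adjusted p = 0.593), -0.13 at 750 ppm postnatal and -0.03 at 250 ppm perinatal. At 250 ppm postnatal it turned sign, to 0.0021.

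In females Slc39a8 was level. The 16 exposed arrays lay between 6.92 and 7.27 (median 7.14), against 7.03, 7.14, 7.15 and 7.19 in controls, and the 4 differences lay between -0.0058 and 0.01. The response of females minus that of males was 0.44 at 750 ppm perinatal (SE 0.18, adjusted p = 0.654), the smallest adjusted p among the 24 tests of sex and lead over the members. It was 0.19 without male control 4. Over all exposed groups the difference in Slc39a8 was -0.17 (adjusted p = 0.532), and -0.04 without that array.

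Male control 4 also carried transcripts of the pineal gland and of photoreceptors, a list drawn up after its values were seen. On that array 10 of 11 measured genes were higher than on all 39 other arrays, and the list mean was 8.45 against 5.27 to 5.77 on the others. Tph1, which starts serotonin synthesis in the pineal gland, read 12.29 against at most 7.39 elsewhere, and the pineal and photoreceptor transcription factor gene Crx read 9.37 against at most 5.75. Aanat, of melatonin synthesis, read 7.16 and was not above the others (at most 7.59). The genes most like Slc39a8 were of the same kind: Gnat2, the cone transducin (r = 0.84), Pde6c, the cone phosphodiesterase (r = 0.83), and Impg2, of the photoreceptor matrix (r = 0.81). Without male control 4 these r values were 0.22, 0.17 and -0.04, and r with the pineal and photoreceptor list was -0.0026 instead of 0.81. Across the other 39 arrays the endothelial and mural cell list had r = 0.57 with Slc39a8 (0.41 over all 40).

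**Figure D3:**
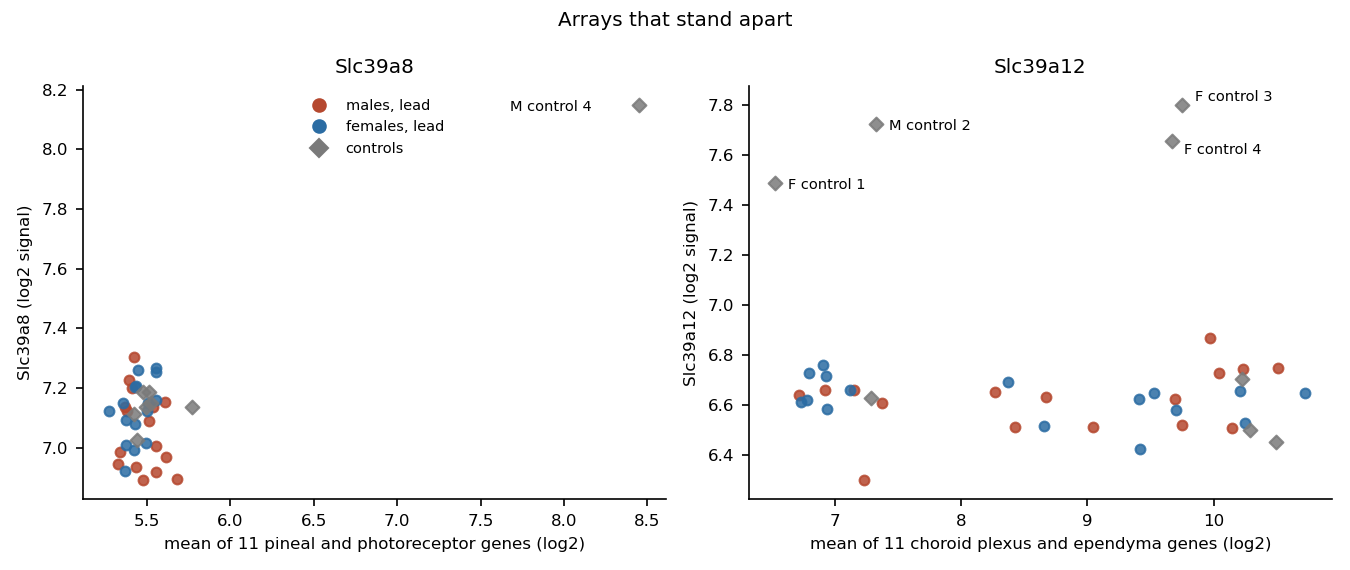
Log2 signal of Slc39a8 against the mean of 11 pineal and photoreceptor genes (left) and of Slc39a12 against the mean of 11 choroid plexus and ependyma genes (right), both axes in log2, each point 1 of 40 arrays. Male control 4 stands alone on the left at 8.15 and 8.45, and the 4 high controls on the right span list means of 6.52 to 9.75.

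Slc39a14 (probe set 10785019), ZIP14, which takes up manganese, iron and zinc, was not called in any comparison. Its 32 exposed arrays lay between 8.48 and 8.85 (median 8.64) and its 8 controls between 8.40 and 8.80 (median 8.58). It was higher than controls in 7 of 8 exposures, which share the controls of each sex label and so are not separate observations. The largest difference was 0.16, in females exposed postnatally to 750 ppm. Those females read 8.63, 8.63, 8.72 and 8.84, against 8.64, 8.40, 8.59 and 8.57 in female controls, with overlap (SE 0.07). The mean of exposed groups differed from controls by 0.06 (95% interval -0.02 to 0.14). The sorting protein gene Pacs1 (r = 0.72), the respiratory chain gene Uqcr11 (r = 0.72) and the phosphatase gene Inpp4a (r = 0.68) were most similar over the arrays, with r of 0.64 to 0.74 after the 2 farthest arrays were left out. The brain metallothionein Mt3 ran against Slc39a14 with r = -0.44.

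Slc39a12 (probe set 10796507), ZIP12, a zinc importer expressed mainly in brain, was lower in exposed animals, all 32 of which read 6.30 to 6.87, than in 4 of the 8 controls, which read 7.49 to 7.80. Exposed males read 6.61, 6.65, 6.30 and 6.87 at 250 ppm perinatal and 6.64, 6.66, 6.51 and 6.63 at 750 ppm perinatal. After postnatal exposure they read 6.73, 6.63, 6.75 and 6.51 at 250 ppm and 6.52, 6.51, 6.66 and 6.75 at 750 ppm, and male controls read 6.50, 7.73, 6.45 and 6.63. Male control 2 stood apart, and the other male controls lay within the exposed range.

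Exposed females read 6.62, 6.76, 6.43 and 6.72 at 250 ppm perinatal and 6.66, 6.52, 6.66 and 6.73 at 750 ppm perinatal. After postnatal exposure they read 6.70, 6.63, 6.65 and 6.61 at 250 ppm and 6.59, 6.53, 6.58 and 6.65 at 750 ppm, and female controls read 7.49, 6.70, 7.80 and 7.66. Female control 2 alone of these lay within the exposed range. All 4 exposed values lay below all 4 controls after postnatal exposure to 250 ppm, as in 0.928% of probe sets, and to 750 ppm, as in 0.897%. Of the 4 high controls, male control 2 (Eif2s3 11.20) and female controls 1 (11.28) and 3 (11.30) lay in the exposed males' range. Female control 4 (11.76) lay in that of exposed females.

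Over all groups Slc39a12 averaged 6.62 in exposed animals and 7.12 in controls, a difference of -0.50 (SE 0.10, 95% interval -0.70 to -0.29, adjusted p = 0.0158). By sex label, the 4 differences in females were -0.78, -0.77, -0.77 and -0.83 (SE 0.18, adjusted p = 0.153, 0.0735, 0.278 and 0.177), and in males -0.17 to -0.22 (SE 0.18). Without male control 2 the male differences turned sign, to 0.08, 0.08, 0.13 and 0.08. Female minus male controls, by sex label, differed by 0.59 (adjusted p = 0.994), and by 0.88 without male control 2 (adjusted p = 0.0139). Without the 3 controls of mismatched sex that difference was 0.29. The female minus male response lay between -0.56 and -0.61, with no adjusted p under 0.670. The call over all groups depended on single controls: it was lost without male control 2 (-0.35, adjusted p = 0.0563), without female control 3 (-0.43, adjusted p = 0.0742), without female control 4 (-0.46, adjusted p = 0.0657) and without the 3 controls of mismatched sex (-0.41, adjusted p = 0.230). Without male control 2, or without female control 2 (where the differences were -1.004 to -1.06), all 4 female comparisons were called, the highest adjusted p being 0.0162. Male control 2 is not part of those comparisons, so leaving it out changed only the spread that the groups share. Female control 2 was the only female control within the exposed range. Without the 3 mismatched controls the female differences were -0.53 to -0.59, with no call.

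The high controls included arrays with higher and arrays with lower signals of choroid plexus transcripts. Ttr, the main transcript of that epithelium, read 10.97 on male control 2 and 8.61, 13.28 and 13.29 on female controls 1, 3 and 4, within its range of 7.69 to 13.55 over all arrays. Slc39a12 had r = -0.07 with the choroid plexus and ependyma list and r = -0.26 with astrocyte markers, and over all 15 lists r lay between -0.31 and 0.08. Astrocyte markers were higher in exposed animals in 11 of 11 (median 0.03, 0 called), and myelin markers in 9 of 9 (median 0.17, 5 called). Of all probe sets, 0.380% were called there. Choroid plexus and ependyma markers were lower in 11 of 11 (median -0.39, 0 called), with list means of 6.71 to 10.73 on exposed arrays and 6.52 to 10.49 on controls. Their part in the Slc39a12 difference was not tested. Females exposed perinatally to 750 ppm, which share the controls' run of title numbers, read 6.52 to 6.73.

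The highest r values of Slc39a12 with other genes were 0.56 for the RNase P subunit gene Rpp38 (rho 0.27) and for Rspo3, a Wnt signal enhancer (rho 0.50), and 0.52 for the vesicle GTPase gene Rab3c. Of the 5 measured genes on each side of it in the genome, Trdmt1 had the highest r (0.45) and Cacnb2 the lowest (-0.24). The signal of Slc39a12 on all exposed arrays was below the array median, and no detection call came with the values, so how far it stood above background is unknown.

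**Figure D4:**
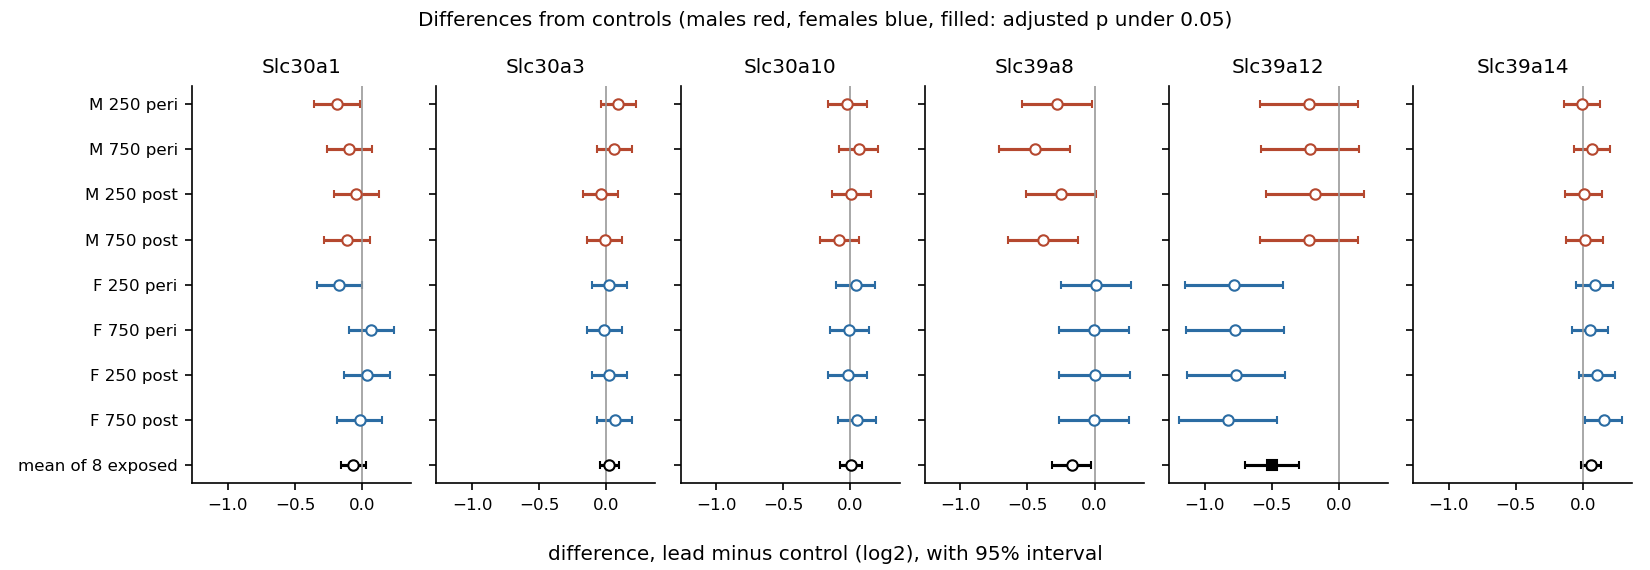
Difference in log2 signal, lead minus controls of the same sex label, for 8 exposed groups and for their mean (rows), with 95% intervals from limma (horizontal bars). The filled square, Slc39a12 over all exposed groups, is the 1 difference with an adjusted p under 0.05.

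Dose, window and sex were compared among exposed animals as well. Averaged over sexes and windows, 0 of 6 members were called between 750 and 250 ppm (0.0856% of probe sets), and the largest difference was -0.08, in Slc39a8. Between postnatal and perinatal exposure 0 of 6 were called (0.0650% of probe sets), with Slc30a1 highest at 0.06. Between exposed females and males 0 of 6 were called (0.0924% of probe sets), and Slc39a8 was highest at 0.07 (adjusted p = 0.647). When the 10 groups of each member were ordered by mean, 0 of 9 gaps between neighbours exceeded the larger SD of the pair, in all 6 members. Male controls stood highest for Slc30a1 and female controls for Slc39a12. Male controls were also highest for Slc39a8, with male control 4 included; without it their mean was below that of males exposed postnatally to 250 ppm, by 0.0021. For Slc39a14 the females exposed postnatally to 750 ppm were highest and female controls lowest.

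The remaining transporters of both families gave 0 calls. Of 7 other SLC30 exporters and 11 other SLC39 importers, all measured, 0 were called in any of the 8 exposures, in their mean, or in the mean dose, window and sex comparisons. Over all exposed groups the other exporters had a median difference of 0.02, with 5 of 7 higher, and the other importers a median of 0.03, with 7 of 11 higher, against 0.0022 over all probe sets. The smallest p among the exporters was that of Slc30a5, of the secretory pathway, which was 8.98 in males exposed postnatally to 750 ppm and 8.80 in male controls (0.19, SE 0.07, adjusted p = 0.376). Among the importers it was that of Slc39a2, which was 6.77 in males exposed perinatally to 750 ppm and 6.45 in male controls (0.32, SE 0.09, adjusted p = 0.247). Of 10 measured genes of manganese, iron and other divalent metal transport 0 were called in the same comparisons. Heph, a ferroxidase of iron export, was 6.37 in females exposed perinatally to 750 ppm and 6.06 in female controls (0.31, SE 0.09, adjusted p = 0.248).

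Of 7 measured zinc-responsive and zinc-binding genes, Mt2A alone was called over all exposed groups, where 0.380% of all probe sets were called. Mt2A stood at 12.75 in exposed animals and 12.58 in controls (0.17, SE 0.04, adjusted p = 0.0468). This call was lost in 28 of 40 fits without 1 array (highest adjusted p = 0.202), and without the 3 mismatched controls (0.14, adjusted p = 0.380). Mt2A ran against Slc39a12 with r = -0.45 (rho -0.08).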

How the data were processed

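Hippocampal RNA (100 ng a sample) was measured on 40 Affymetrix whole-transcript rat arrays. The log2 values were used as deposited by the authors; per the submitters' processing notes, which list no versions, the tools were RMA and Partek, and RMA equalises the arrays' distributions, so values are relative within an array and levels of different genes were not compared. Groups came from the titles, and replicates were numbered in accession order, which pairs nothing.

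A limma model (limma 3.58.1, R 4.3.3) gave each of 10 groups a mean, with moderated variances that followed mean signal, and 25 contrasts. Two-sided p-values were corrected within a contrast (Benjamini-Hochberg, 29214 probe sets) and called under 0.05. Probe sets numbered 15310 with 1 symbol, 323 with several and 13581 with none; a gene with several single-symbol probe sets was taken by its highest mean. The fit was tested on simulated data. Named were the members, called genes of the metal lists (otherwise the smallest p), and the 3 genes of highest r with each member; Eif2s3, Prox1, C1ql2 and the pineal list were chosen after values were seen. Members and lists were chosen with earlier results of these data known. The number of arrays limits the precision. Promoters were searched in Python 3.11.15, and figures drawn with matplotlib 3.10.9.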

Additional observations from a re-analysis of the deposited data

Results flagged for a closer look

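In 4 of the 60 groups of 4 arrays (6 members in 10 groups), 1 array lay far from the other 3 by Dixon's criterion. Chance alone flags about 5% of groups. Slc39a8 read 8.15 on male control 4, against 7.11 to 7.19 on the other male controls. Slc39a12 read 7.73 on male control 2, against 6.45 to 6.63 on the others. Slc39a8 read 7.09 on replicate 4 of the males exposed perinatally to 750 ppm, against 6.89 to 6.92 on the other arrays of that group. Slc39a14 read 8.52 on replicate 2 of the males exposed postnatally to 250 ppm, against 8.65 to 8.67.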

How the results depend on the processing

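Fits restricted to the groups compared, without a variance trend, after another quantile normalization or with the dimmest 40% of probe sets removed, leaving out the 3 compressed arrays, and pooling all 8 controls kept the direction and the side of the threshold of the 33 member differences followed (of those they could give), and the counts of called members in 13 comparisons, except that Slc30a10 over all exposed groups was -0.0055 after quantile normalization. Of the metallothionein calls, Mt2A over all groups was lost under quantile normalization (adjusted p = 0.0637), Mt1 in the compared groups only (adjusted p = 0.119), and all 3 without the trend (0.0581 to 0.0770). With array weights 1 member, Slc39a12, was called in each of the 4 female comparisons. Without the 3 mismatched controls, with or without the compressed arrays (leaving out both was chosen after seeing the data), 0 members were called over all exposed groups, and Slc39a12 was at -0.41 and -0.40. Slc39a8 changed sign there in females minus males of the controls (0.016), in males exposed postnatally to 250 ppm (0.0021, also without the compressed arrays and male control 4), and in males exposed perinatally to 250 ppm (0.037) without the compressed arrays and either male control 4 (also chosen after seeing the data) or all mismatched controls. Leaving out each array in turn gave 0 to 1 called members in each female comparison and over all exposed groups, where Slc39a12 lay between -0.62 and -0.35, and 0 in the other 8 of these 13 comparisons. Outside them, Slc39a12 in female minus male controls was called without male control 2, and the difference fell to 0.29 without the 3 mismatched controls. Leaving out 1 array, Slc39a12 in males lay between -0.34 and 0.079 at 250 ppm perinatal, -0.34 and 0.084 at 750 ppm perinatal, -0.34 and 0.081 at 750 ppm postnatal, and between -0.30 and 0.13 at 250 ppm postnatal. Slc39a8 in males at 250 ppm postnatal lay between -0.34 and 0.0021. Over all exposed groups Slc30a3 lay between -0.0017 and 0.038, and Slc30a10 between -0.011 and 0.019. Each member had 1 probe set, so the alternative of its other probe sets could not be run. The titles number each array but give no litters or pairing, so no paired analysis was possible. Without detection calls, how far the dim Slc39a12 signal stood above background limits its values.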
